A study of Mus musculus with 6 samples.

Results

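Integrins and laminins are the matrix receptors and basement membrane proteins whose genes are described here in mouse Glu-tag cells. The genes are the protein-coding entries of the count table whose symbols begin with Itga followed by a digit or by d, e, l, m, v or x, with Itgb followed by a digit (without the genes of integrin-binding proteins), or consist of Lama, Lamb or Lamc and 1 digit. This gave 38 of 54532 genes, namely 18 integrin alpha, 9 integrin beta, 5 laminin alpha, 3 laminin beta and 3 laminin gamma genes. The rule itself uses names and gene type and no measured value. The series compared Glu-tag cells, used there to model neuroendocrine tumours of the small intestine, with a control hairpin (labelled sh-control, genotype WT) or with a stable hairpin against Irs2 (labelled sh-IRS2, genotype IRS2 Knockdown), in 3 libraries each. Every library is of the same line, no label names a treatment, and the hairpin is the only difference the labels give. The groups are called control and shIRS2 here, with the number at the end of each title. The labels do not give the hairpin sequence, the number of clones or what a replicate number shares.

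An integrin is a heterodimer of an alpha and a beta chain, and the pairing sets which matrix protein it holds. The beta1 chain pairs with the largest set of alpha chains, among them the laminin receptors of alpha3, alpha6 and alpha7, the fibronectin receptor of alpha5 and the collagen receptors of alpha1, alpha2, alpha10 and alpha11. The alpha v chain pairs with several beta chains and binds proteins with the RGD motif, while the beta2 and beta7 integrins are known from leukocytes. A laminin is a trimer of an alpha, a beta and a gamma chain, named by the chain numbers. Laminin-511 and laminin-521 share the alpha5 and gamma1 chains and differ in the beta chain, and laminin-332 of epithelia is anchored through the alpha6 beta4 integrin of hemidesmosomes.

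The libraries held 14991019 to 19790073 counts, of which 0.267% to 0.316% fell on these 38 genes. Irs2 was not lower in the shIRS2 libraries. It had 30.99, 23.0 and 34.1 CPM in the control libraries and 31.4, 29.1 and 38.6 CPM in the shIRS2 libraries (CPM, counts per 1000000 counts of the library after TMM scaling), so that shIRS2 over control was 0.17 (SE 0.16, 95% interval -0.20 to 0.54) on the log2 scale, at an adjusted p in edgeR of 1.00. An exact permutation test of log2 CPM returned 0.5 (two-sided), and no split of 6 libraries into 3 and 3 can go below 0.1. The directions below are therefore those of the libraries labelled shIRS2. Of 17 enteroendocrine markers, 3 (Pax6, Nkx2-2 and Etv1) had a mean of at least 1 CPM, and Gcg, Chga, Pcsk1, Neurod1 and Pyy had 0 counts in all libraries, which allows a level of up to 0.0296 CPM. Gcg, which encodes proglucagon, is the defining product of the line, so its absence goes against the labelled cell type. Of 8 epithelial markers 2 (Krt8 and Krt18) reached 1 CPM. Epcam, Krt19, Cldn7 and Cdh1 held 1, 3, 13 and 14 counts over all libraries and Cldn3 and Cldn4 held 0. Of 9 fibroblast markers 5 reached 1 CPM, led by the collagen gene Col3a1 and the receptor gene Pdgfra. Col1a1 and Dcn held 20 and 25 counts and Thy1 and Postn held 0. Of 10 leukocyte markers 2 reached 1 CPM, Lyz2 with 240 counts and Coro1a with 124 over all libraries, while Ptprc had 3 and Cd3e and Adgre1 had 0.

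Of the 38 genes, 21 had a mean of at least 1 CPM and 24 passed the filter on low counts. Levels are compared between genes as FPKM, the count per kilobase of gene and per 1000000 counts, given as mean ± SD over all 6 libraries. Among alpha chains, 4 stood close together. Itga5, of the fibronectin receptor, had 18.3 ± 1.39 FPKM, Itga3, of a laminin receptor, 15.6 ± 1.64 FPKM, Itga6, of the other main laminin receptor, 13.8 ± 1.67 FPKM, and Itgav 13.3 ± 0.604 FPKM (n = 6). The library ranges of neighbours in this order overlapped. Itga7, a laminin receptor chain best known from muscle, followed at 4.61 ± 0.791 FPKM with a range below these 4. The collagen receptor chains Itga10 and Itga1 stood at 1.18 ± 0.230 FPKM and 0.968 ± 0.167 FPKM, and their ranges overlapped. Itga1 shares its strand and part of its span with Pelo, which held 928 counts beside the 1834 of Itga1. Itga2 and Itga11, which complete the collagen receptors, held 5 and 16 counts in all 6 libraries. Itgae, a chain of intraepithelial lymphocytes, stood at 0.333 ± 0.0792 FPKM and Itga2b, of platelets, at 0.192 ± 0.0770 FPKM, and the leukocyte chains Itgal and Itga4 lay at 0.146 and 0.0678 FPKM. Itga8, Itga9 and Itgax had 1 count each and Itgam and Itgad had 0.

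The beta chains were led by Itgb1 at 144 ± 14.6 FPKM, followed by Itgb7 at 89.3 ± 17.6 FPKM and Itgb5 at 39.0 ± 5.60 FPKM (n = 6), and these 3 ranges did not overlap. Together they left little of the beta chain total to others. Itgb1 took 48.4% to 57.7% of summed beta FPKM over the libraries, Itgb7 26.0% to 37.9% and Itgb5 12.7% to 15.5%. Itgb2, the leukocyte beta chain, stood at 1.48 ± 0.303 FPKM, Itgb3 at 0.518 ± 0.0916 FPKM and Itgb4, the hemidesmosome chain, at 0.440 ± 0.0815 FPKM. Itgb8 and Itgb6 held 20 and 1 counts and Itgb2l, a beta2-like gene, 0. Itgb7 (ENSMUSG00000001281, minus strand of chromosome 15, 102215995 to 102231944 in mm10) stood far above its known partners. Its FPKM was 135 to 322 times the sum of Itga4 and Itgae in each library, from 25024 counts for Itgb7 against 97 for Itga4 and 154 for Itgae. No other gene of the count table overlaps Itgb7, whereas Itgae overlaps Haspin on the other strand, which held 2926 counts, and Itga4 overlaps Cerkl, which held 91. The strand setting of the counting is not given in the sources used here, so some of the reads counted for Itgae and Itga4 could come from these neighbours. For comparison, Itgb1 stood at 1.82 to 2.44 times the sum of its 12 alpha partners and Itgb5 at 2.51 to 3.30 times Itgav.

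The laminin chains were carried by Lama5, Lamb1, Lamb2 and Lamc1. Lamb1 and Lamc1 stood at 54.0 ± 9.96 FPKM and 53.5 ± 2.86 FPKM, Lama5 at 29.1 ± 4.58 FPKM and Lamb2 at 11.2 ± 2.07 FPKM (n = 6). The ranges of Lamb1 and Lamc1 overlapped, and those of Lama5 and Lamb2 overlapped neither these nor each other. Lama3, the alpha chain of laminin-332, stood at 3.17 ± 0.756 FPKM, while Lamb3, its beta chain, had 21 counts in all libraries. Lama5 made up 84.6% to 93.4% of laminin alpha FPKM over the libraries, and nearly all of the rest was Lama3. Lama1 and Lama2 held 35 and 15 counts, Lamc3 54 and Lama4 0.

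**Figure D1:**
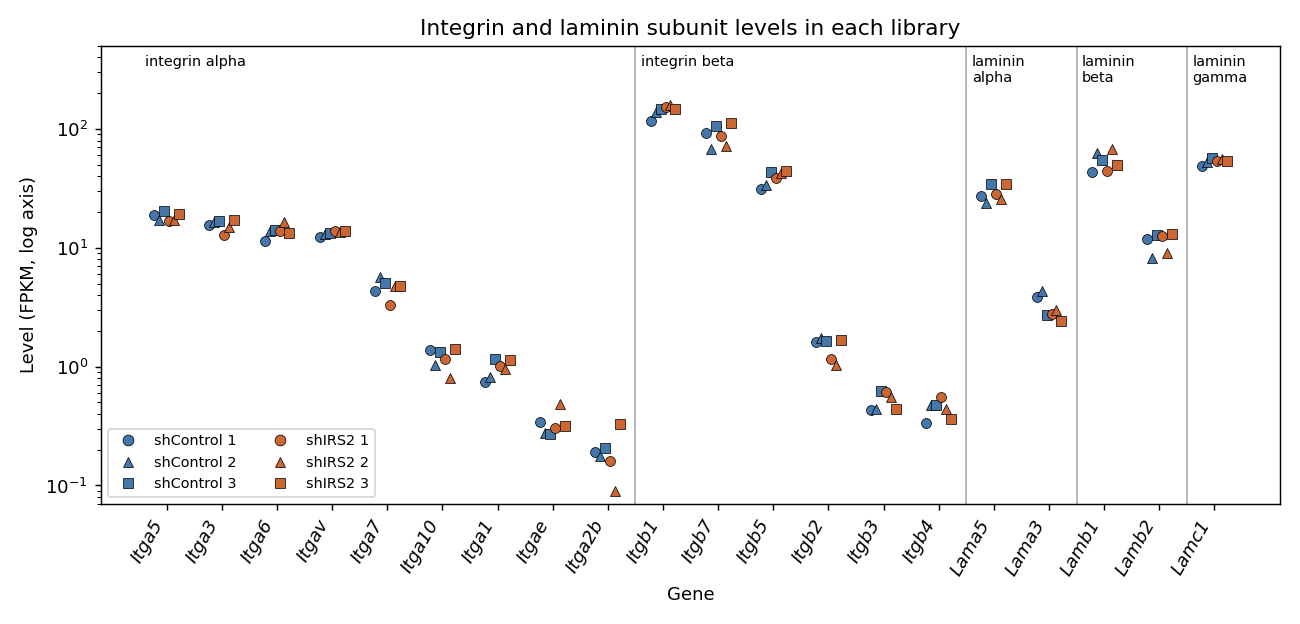
FPKM of 20 subunit genes that averaged 1 CPM or more, on a log axis, grouped by chain. Each point is 1 library, coloured by hairpin and shaped by the number of its title. Itgb1, Itgb7 and Itgb5 lead the integrin chains, and Lamb1, Lamc1 and Lama5 the laminin chains.

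Which receptors and laminins these chains could form was read from textbook pairings, counting a complex as possible where each chain had a mean of at least 1 CPM. Of 24 integrin pairs 12 met this, and of 15 laminin trimers 5 did. The better supplied pairs were those of beta1 with alpha5, alpha3, alpha6 and alpha v and that of alpha v with beta5, whose lower chain stood between 13.3 and 18.3 FPKM. The pair of alpha7 with beta1 was held to 4.61 FPKM by Itga7. The pairs of alpha10 and alpha1 with beta1, alpha v with beta3, alpha6 with beta4, alpha E with beta7 and alpha IIb with beta3 had a lower chain between 0.192 and 1.18 FPKM. No beta2 pair met the level, since Itgal, Itgam, Itgax and Itgad were all under 1 CPM. Among the possible trimers were laminin-511, laminin-521, laminin-311 and laminin-321. The lowest chain stood at 29.1 FPKM (Lama5) for laminin-511, 11.2 FPKM (Lamb2) for laminin-521 and 3.17 FPKM (Lama3) for laminin-311 and laminin-321. Laminin-332 was not among them for want of Lamb3. RNA levels do not show which trimers or dimers the cells assembled, and in bulk RNA fewer cells with a transcript and less of it per cell cannot be told apart.

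No integrin or laminin gene passed an adjusted p of 0.05 between the hairpin groups. The edgeR quasi-likelihood test called 0 of the 24 tested members, where the share called among all 13472 genes was 0%, and 1 member lay at an unadjusted p under 0.05 where 1.94% of all genes did. DESeq2 and limma on log2(FPKM + 1) also called 0 members. They had 1 and 0 members at an unadjusted p under 0.05, where 192 and 327 of all genes lay there. Of the 24 members 15 lay above 0 and 9 below it (log2 fold change, shIRS2 over control). Those above 0 were 62.5%, beside 49.9% of all genes tested. The median of the members was 0.04 beside 0.00 over all genes tested. For the 15 members with a mean of at least 10 CPM, a change of 2-fold in either direction lay outside the 95% interval in 15 and one of 1.5-fold in 12. The replicate number was then added as a block. Libraries of the same number clearly deviated together from their group means only for number 2, at a correlation of 0.576 against at most -0.31 with another number. For numbers 1 and 3 the correlations were 0.167 and 0.260, against at most 0.189 and 0.199 with another number. The blocked edgeR test also called 0 members, where 0.00742% of all genes were called. It had 5 members at an unadjusted p under 0.05, which is 20.8%, beside 9.16% of all genes. Among these were Itgb1, Itgb5, Itga7 and Lama3. The 9 fibroblast markers, 5 of them at 1 CPM or more and Thy1 and Postn at 0 counts, summed to 636 to 961 CPM in the control and 865 to 985 CPM in the shIRS2 libraries, most of it Col3a1, and their part in these values was not tested.

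Lama3 (ENSMUSG00000024421, plus strand of chromosome 18, 12333819 to 12583013 in mm10) had the largest of these differences. It had 41.3, 47.1 and 29.4 CPM in the control libraries numbered 1, 2 and 3 and 29.7, 32.1 and 25.8 CPM in the shIRS2 libraries of the same numbers. The control libraries numbered 1 and 2 were above all shIRS2 libraries, but the control library numbered 3 lay within their range. This is a log2 fold change of -0.43 (SE 0.17, 95% interval -0.80 to -0.05), with an unadjusted edgeR p of 0.0307 and an adjusted p of 1.00. With the block it was -0.41 (SE 0.09) with an adjusted p of 0.215 in edgeR, and shIRS2 over control within numbers 1, 2 and 3 was -0.47, -0.55 and -0.19 (log2).

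Itgb1, the shared beta chain (ENSMUSG00000025809, plus strand of chromosome 8, 128685654 to 128733200), had 482, 569.6 and 599.5 CPM in the control libraries and 627, 653 and 606 CPM in the shIRS2 libraries. All shIRS2 libraries lay above all control libraries, and the control library numbered 1 was the lowest. On the log2 scale the difference was 0.19 (SE 0.10, 95% interval -0.02 to 0.41), its edgeR adjusted p was 1.00, and with the block 0.20 (SE 0.07) with an adjusted p of 0.404. Itgav was the other member whose groups did not overlap, at 133, 139.7 and 143 CPM in the control libraries and 149, 146 and 151 CPM in the shIRS2 libraries, a log2 fold change of 0.10 (SE 0.08, 95% interval -0.08 to 0.28). Groups that do not overlap with shIRS2 higher were thus seen in 2 of 24 members, or 8.33%, beside 3.26% of all genes. With shIRS2 lower there were 0, beside 3.09%. Itgb5, the partner of alpha v, had 110.5, 120.7 and 156 CPM in the control libraries and 137, 153 and 157 CPM in the shIRS2 libraries, which overlapped, and a log2 fold change of 0.21 (SE 0.13, 95% interval -0.08 to 0.49). Itga7 had 34.9, 45.8 and 40.7 CPM in the control libraries and 26.7, 38.3 and 38.4 CPM in the shIRS2 libraries, which also overlapped, and -0.23 (SE 0.16, 95% interval -0.59 to 0.12). When single libraries were left out, the hairpin log2 fold change ran from 0.10 to 0.25 for Itgb1 and 0.10 to 0.36 for Itgb5, both lowest without the control library numbered 1. It ran from -0.60 to -0.27 for Lama3, nearest 0 without the control library numbered 2, and from -0.33 to -0.08 for Itga7, nearest 0 without the shIRS2 library numbered 1. In the blocked edgeR fit Itgb5 had 0.22 (SE 0.07) with an adjusted p of 0.390 and Itga7 had -0.24 (SE 0.08) with an adjusted p of 0.404.

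Chain totals and ratios were compared between the hairpin groups by two-sided exact permutation tests. Summed alpha chain FPKM was 68.9 ± 3.67 in the control and 68.2 ± 4.42 in the shIRS2 libraries (SD, n = 3 each), with an exact permutation p of 0.8. Summed beta chain FPKM was 262 ± 32.3 against 288 ± 16.0, with an exact permutation p of 0.3. Summed laminin alpha, beta and gamma FPKM gave exact permutation p-values of 1, 0.9 and 0.8. Of 21 totals, shares and ratios compared in this way, 2 reached the smallest exact p of 0.1, and the Benjamini-Hochberg adjusted value of both was 0.840. One was the ratio of Itgb1 to the sum of its alpha partners, at 1.96 ± 0.129 in the control and 2.28 ± 0.179 in the shIRS2 libraries (n = 3 each). The other was the share of Itga7 among the laminin-binding chains Itga3, Itga6 and Itga7, at 14.5% ± 1.08 against 12.5% ± 1.35.

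**Figure D2:**
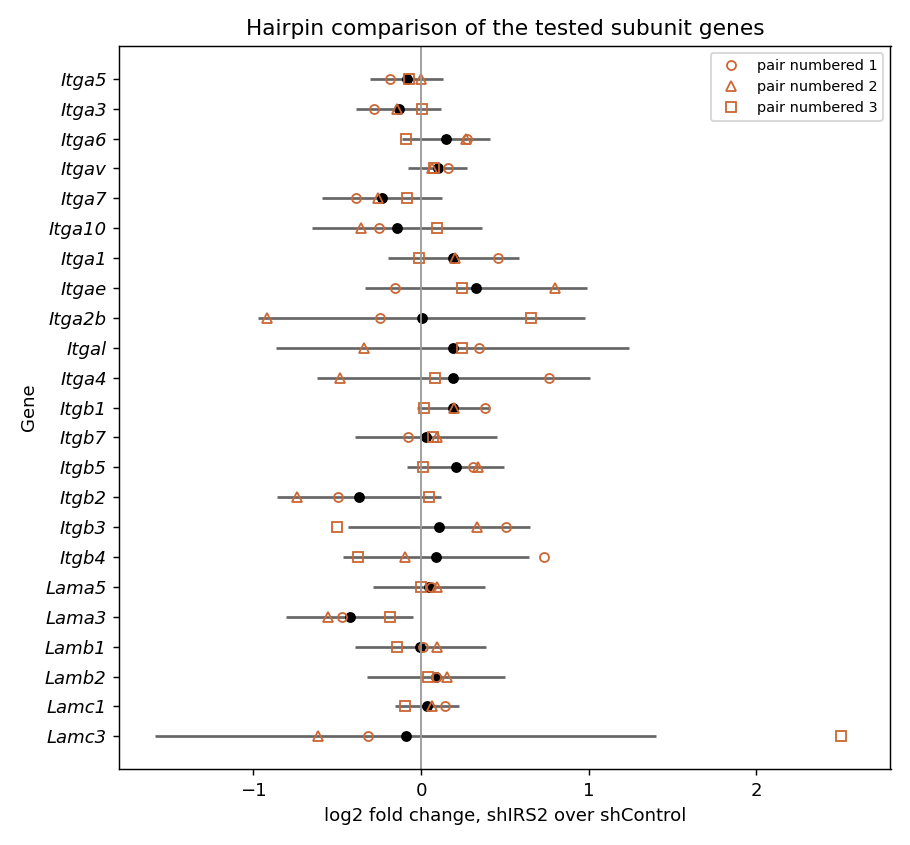
Log2 fold change of the shIRS2 over the control libraries for 23 tested genes. Black points and bars are the edgeR fold change and its 95% interval, and open symbols are the ratios of the libraries with the same number, with 0.5 counts added. All intervals except that of Lama3 include 0.

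The replicate number of the title separated the libraries more than the hairpin did. With the hairpin as a term, the edgeR F test over the 3 numbers called 8 of 24 members, or 33.3%, beside 19.6% of all genes. Among these were Itga7, Itgb5, Itgb7, Lama3, Lama5, Lamb1 and Lamb2, so that the expressed chains of the laminin alpha and beta families all differed by number. Between numbers 3 and 1 alone, 0.238% of all genes and 0 members were called by edgeR. Between 2 and 1 the members called were 4 (Lamb1, Lamb2, Itgb7 and Itga7) beside 15.3% of all genes, and between 3 and 2 they were 6 (Lamb1, Lamb2, Lama3, Lama5, Itgb7 and Itgal) beside 21.4%. The libraries numbered 2 were then compared with the mean of numbers 1 and 3, a contrast known from earlier results of these data to stand apart. Here 8 members were called, or 33.3%, beside 23.5% of all genes. Lamb1, Lama3 and Itga7 were higher in the libraries numbered 2 than in that mean, which is 3 members or 12.5% beside 11.6% of all genes. Of these, only Lamb1 had both libraries numbered 2 above all libraries of the other numbers. Lamb2, Itgb7, Lama5, Itga10 and Itgal were lower, which is 5 members or 20.8% beside 11.9%. The median over the members was -0.02 and that over all genes 0.00 (log2).

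The beta chains of laminin moved in opposite directions. Lamb1 (ENSMUSG00000002900, plus strand of chromosome 12, 31265234 to 31329644 in mm10) had 436, 630.1 and 548 CPM in the control libraries numbered 1, 2 and 3 and 439.8, 673 and 495 CPM in the shIRS2 libraries of the same numbers. In both groups the library numbered 2 was the highest, above all 4 libraries of the other numbers. The edgeR log2 difference of number 2 from the mean of numbers 1 and 3 was 0.45 (SE 0.06), with an adjusted p of 0.000257. Lamb2 (ENSMUSG00000052911, plus strand of chromosome 9, 108479736 to 108490530) had 71.8, 49.9 and 77.6 CPM in the control libraries and 76.4, 55.5 and 80.0 CPM in the shIRS2 libraries, in the order of their numbers. Both libraries numbered 2 lay below all others, with a log2 difference of -0.54 (SE 0.07) and an edgeR adjusted p of 0.000121. The ratio of Lamb1 to Lamb2 in FPKM was 7.74 and 7.44 in the libraries numbered 2, and 3.53 to 4.34 in the others. Lamb2, the chain that sets laminin-521 apart from laminin-511, thus made up 11.4% and 11.8% of laminin beta FPKM in the libraries numbered 2, against 18.7% to 22.1% in the others.

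Lama5, the alpha chain of both laminins (ENSMUSG00000015647, minus strand of chromosome 2, 180176373 to 180225859), had 311.1, 275 and 396 CPM in the control libraries and 324, 293 and 397 CPM in the shIRS2 libraries. It was lowest in the libraries numbered 2 and highest in those numbered 3, with a log2 difference of -0.32 (SE 0.06) for number 2 and an edgeR adjusted p of 0.00167. Without the control or the shIRS2 library numbered 2 the difference of Lama5 did not pass, at an adjusted p of 0.155 and 0.0516. Lamc1, the gamma chain, showed no such pattern, at 403, 439.9 and 473 CPM in the control libraries and 445, 459.8 and 443 CPM in the shIRS2 libraries, a log2 difference of 0.03 (SE 0.06) and an edgeR adjusted p of 0.783. In FPKM the ratio of Lamb1 to Lama5 was 2.63 in both libraries numbered 2 and 1.43 to 1.61 in the others. That of Lamb1 to Lamc1 was 1.19 and 1.22 against 0.824 to 0.968. Lama3 had a log2 difference of 0.33 (SE 0.09) for number 2 and an edgeR adjusted p of 0.0188, but its libraries, given above, overlapped between the numbers. Under both hairpins Lama3 was lowest in number 3. The log2 differences were 0.16 for 2 over 1, -0.35 for 3 over 1 and -0.50 for 3 over 2.

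**Figure D3:**
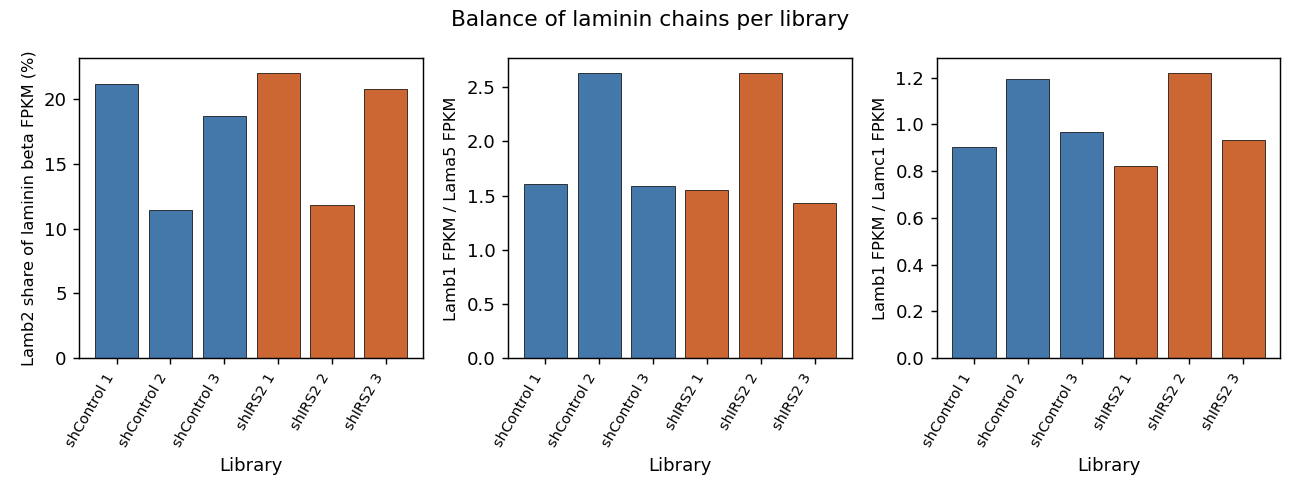
Share of Lamb2 in summed laminin beta FPKM and the ratios of Lamb1 to Lama5 and to Lamc1 in FPKM, 1 bar per library, blue for control and orange for shIRS2. Under both hairpins the library numbered 2 has the lowest share of Lamb2 and the highest ratios.

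Among integrin chains the smallest adjusted p for number 2 was that of Itgb7, at 256, 187 and 294 CPM in the control libraries and 243, 199.8 and 309 CPM in the shIRS2 libraries. Both libraries numbered 2 were below all others, with a log2 difference of -0.50 (SE 0.06) and an edgeR adjusted p of 9.96e-05. Its share of beta chain FPKM was 26.0% and 27.7% in the libraries numbered 2 and 31.1% to 37.9% in the others. Itga7 was higher in the libraries numbered 2 than in the mean of numbers 1 and 3. Its log2 difference was 0.27 (SE 0.09) with an edgeR adjusted p of 0.0360, and its libraries overlapped between the numbers. Under both hairpins Itga7 was lowest in number 1. The log2 differences were 0.45 for 2 over 1, 0.37 for 3 over 1 and -0.08 for 3 over 2, so numbers 2 and 3 lay close together. Itga10 had 7.14, 5.41 and 6.85 CPM in the control libraries and 6.00, 4.21 and 7.32 CPM in the shIRS2 libraries, lowest in number 2 under both hairpins, with -0.50 (SE 0.17) and an edgeR adjusted p of 0.0489. Itgal had 11 and 7 counts in the libraries numbered 2 and 14 to 23 in the others, a log2 difference of -1.22 (SE 0.40) and an edgeR adjusted p of 0.0367. Itgal met the filter on low counts only through the libraries numbered 1 and 3, where it is higher. Its call, counted among the lower members above, is therefore not independent of that filter. Itgb5 was called in the F test, at an adjusted p of 0.0294, with its widest log2 difference, 0.35, for number 3 over 1. The remaining main chains did not pass for number 2. Itgb1 had 0.08 (SE 0.07), Itgav -0.01 (SE 0.06), Itga3 0.02 (SE 0.08) and Itga5 -0.12 (SE 0.07), with edgeR adjusted p-values of 0.459, 0.930, 0.899 and 0.235. Itga6 had 0.21 (SE 0.08) and 0.0762, and passed at 0.00133 without the control library numbered 3, 0.0246 without the shIRS2 library numbered 1 and 0.0367 without the filter.

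**Figure D4:**
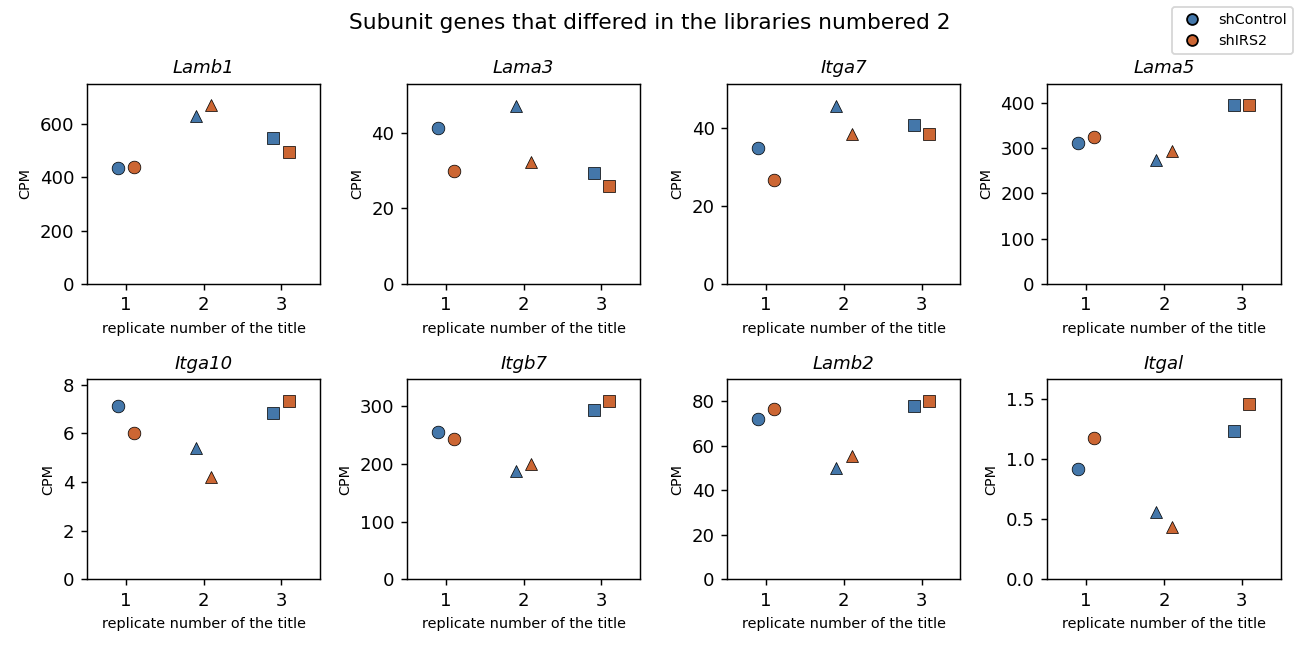
CPM of the 8 subunit genes called between the libraries numbered 2 and the mean of numbers 1 and 3, against the replicate number of the title, with axes that start at 0. Each point is 1 library, blue for control and orange for shIRS2. For Lamb1 both libraries numbered 2 are the highest, and for Lamb2, Itgb7, Lama5, Itga10 and Itgal both are the lowest.

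Libraries that did not overlap between number 2 and the rest were seen in 2 members that were higher (Lamb1 and Lamc3) and 5 that were lower, or 8.33% and 20.8%, beside 20.0% and 20.1% of all genes. The count of lower members was thus near the share among all genes and that of higher members under it. Lamc3 was not called, at an edgeR adjusted p of 0.130. It had 19 and 10 counts in the libraries numbered 2 and 1 to 9 in the others, at the closest 0.619 CPM beside 0.590 CPM. Lamc3 met the filter on low counts only through both libraries numbered 2 and the control library numbered 1. Its place among the higher members, like that of Itgal among the lower, is therefore not independent of that filter. The calls for Lamb1, Lamb2 and Itgb7 passed under all 11 alternative fits run for them, and that for Lama5 under 9. Those for Lama3 and Itga7 passed under 5 of 11, that for Itga10 under 3 of 11 and that for Itgal under 6 of 10. Without the control library numbered 2, or without the shIRS2 library numbered 2, 3 members passed in place of 8, namely Lamb1, Lamb2 and Itgb7. The edgeR adjusted p without the control or the shIRS2 library numbered 2 was 0.521 and 0.0512 for Lama3, 0.378 and 0.245 for Itga7, 0.182 and 0.457 for Itga10 and 0.170 and 0.421 for Itgal. Without the control library numbered 3 it was 0.0730 for Lama3 and 0.118 for Itga7. For Itga10 it was 0.0953 when the control library numbered 1 was left out and 0.108 when the shIRS2 library numbered 3 was, and for Itgal 0.0793 without the shIRS2 library numbered 1. Irs2 differed in the same contrast, with a log2 difference of -0.38 (SE 0.10) and an edgeR adjusted p of 0.0107. The summed level of the 17 enteroendocrine markers, of which 3 reached 1 CPM and Etv1 made up most, was 102 and 114 CPM in the libraries numbered 2 and 124 to 159 CPM in the others. The 9 fibroblast markers summed to 636 and 865 CPM against 642 to 985 CPM. The part of either in these results was not tested. What the libraries numbered 2 share beyond their number is not given in the labels.

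The bases ahead of Lamb1, Lamb2, Lama5 and Itgb7, the members with the 4 smallest adjusted p-values for number 2, are shown. They are from RefSeq promoter windows of build GRCm38.p6 (the assembly of mm10), which held an entry for 24 of the 38 genes and for 5 of the 8 genes called for number 2. Each is printed 5′ to 3′ on the strand of the gene and stops before the first base the count table assigns to the gene. Capitals mark a GC box, GGGCGG or its complement CCGCCC.
Lamb1, chr12:31265043-31265233, plus strand: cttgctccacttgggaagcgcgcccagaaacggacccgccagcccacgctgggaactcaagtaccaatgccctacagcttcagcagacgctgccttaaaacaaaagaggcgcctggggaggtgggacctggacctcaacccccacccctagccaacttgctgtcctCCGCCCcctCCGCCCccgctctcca
Lamb2, chr9:108479612-108479735, plus strand: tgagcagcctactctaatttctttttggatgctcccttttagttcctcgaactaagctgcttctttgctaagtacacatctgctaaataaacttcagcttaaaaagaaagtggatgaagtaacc
Lama5, chr2:180225860-180226109, minus strand: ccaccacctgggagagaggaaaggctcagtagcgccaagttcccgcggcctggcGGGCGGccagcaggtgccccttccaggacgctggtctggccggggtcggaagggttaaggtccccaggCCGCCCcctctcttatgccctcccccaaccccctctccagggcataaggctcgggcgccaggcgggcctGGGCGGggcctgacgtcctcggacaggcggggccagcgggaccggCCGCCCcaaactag
Itgb7, chr15:102231945-102232185, minus strand: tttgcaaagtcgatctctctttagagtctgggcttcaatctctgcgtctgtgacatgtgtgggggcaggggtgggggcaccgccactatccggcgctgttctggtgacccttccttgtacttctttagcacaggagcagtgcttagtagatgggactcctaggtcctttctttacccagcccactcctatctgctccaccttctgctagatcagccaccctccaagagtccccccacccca
The printed stretches were 63.9% G and C for Lamb1, 37.9% for Lamb2, 72.4% for Lama5 and 55.6% for Itgb7. They were 191, 124, 250 and 241 bases long, and the RefSeq start sites were 31265293, 108479862, 180225859 and 102231935. The stretches of Lamb1, Lamb2 and Itgb7 thus leave out bases next to the RefSeq start. The shares of G and C therefore do not compare like parts of the promoters. Over the whole windows of 300 bases, searched on both strands, the GC box occurred 4 times for Lama5 and 2 times for Lamb1 and not for Lamb2 or Itgb7. It occurs in 35.7% of all 32851 windows in the table. The CCAAT box, spelled CCAAT, occurred once for Lamb1 and is found in 37.4% of all windows. The TATA box TATAAA, the AP-1 site TGANTCA and the E-box CACGTG were in none of the 4 windows, and are in 13.6%, 7.81% and 7.15% of all. A match is a description of the letters, not a site.

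Genes that work with integrins and laminins were read from 5 lists, of which edgeR called 0 genes between the hairpin groups, with and without the block. Of the 11 tested basement membrane partners 10 had a positive log2 fold change in the shIRS2 libraries, beside 49.9% of all genes tested. Their median was 0.14, and 8 of the 11 also differed by replicate number (below). All of these genes were measured in the same 6 libraries, so their signs cannot be counted as independent observations. The 13 tested integrin ligands other than laminin had a median of 0.14. For the adaptors, the tetraspanins and hemidesmosome partners and the other laminin receptors the medians were 0.03, 0.02 and 0.05, beside 0.00 over all genes. Nid1, which encodes the nidogen that links laminin to collagen IV, stood at 390.0 ± 51.4 CPM in the control and 455 ± 16.2 CPM in the shIRS2 libraries (n = 3 each). Its groups overlapped, at an edgeR adjusted p of 1.00. Col17a1, the hemidesmosome collagen, had 16, 19 and 14 counts in the control and 4, 5 and 3 in the shIRS2 libraries, which do not overlap. This is a log2 fold change of -1.89 (SE 0.41, 95% interval -2.81 to -0.98), with an unadjusted edgeR p of 0.000910 and an adjusted p of 1.00, or 0.215 with the block. Col17a1 met the filter on low counts only through the control libraries, at 0.786 to 1.05 CPM against 0.191 to 0.310 CPM in the shIRS2 libraries. Its p-values and interval are therefore not independent of that filter and lend the difference no support. Of the other ligands, 9 of 13 had a positive log2 fold change, beside 49.9% of all genes tested. Spp1, which encodes osteopontin, had the smallest p, with 0.22 (SE 0.10, 95% interval 0.00 to 0.45). Tnc, which encodes tenascin-C, was next and lay the other way, with 5.11, 5.97 and 4.60 CPM in the control libraries and 4.06, 2.73 and 4.58 CPM in the shIRS2 libraries, which do not overlap, and -0.47 (SE 0.23, 95% interval -0.98 to 0.05). Fn1, the ligand of the alpha5 beta1 integrin, had 0.31 (SE 0.17, 95% interval -0.07 to 0.68). The unadjusted edgeR p-values were 0.0498, 0.0711 and 0.0964, and none passed after adjustment.

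By replicate number, the F test of edgeR called 8 of 29 adaptors, 4 of 10 tetraspanin and hemidesmosome genes, 8 of 11 basement membrane partners, 2 of 17 other laminin receptors and 7 of 13 other ligands, beside 19.6% of all genes. For number 2, 11.6% of all genes were higher and 11.9% lower. The adaptors had 5 higher and 2 lower. The lower ones were Tns2 and Tns1, which encode tensins that tie integrin tails to actin, at log2 differences of -0.60 (SE 0.07) and -0.53 (SE 0.07) with edgeR adjusted p-values of 9.12e-05 and 0.000177. Among the higher ones were the tensin gene Tns3 at 0.35 (SE 0.07) and Vcl, which encodes vinculin, at 0.29 (SE 0.06). The tetraspanin and hemidesmosome list had 2 higher and 3 lower. Plec, which encodes the plectin that anchors the alpha6 beta4 integrin, was higher at 0.44 (SE 0.07), with an edgeR adjusted p of 0.000476. The tetraspanin gene Cd81 was lower at -0.30 (SE 0.07) and 0.0100. The other laminin receptors had 2 higher and 1 lower. Dag1, which encodes dystroglycan, the main laminin receptor that is not an integrin, was lower at -0.37 (SE 0.06) and 0.000614. The other ligands had 4 higher and 3 lower, with a median log2 difference of -0.10. Fbn1 (fibrillin-1), Thbs1 (thrombospondin-1) and Vcam1, which binds the alpha4 integrins, were higher at 0.59 (SE 0.07), 1.18 (SE 0.16) and 0.88 (SE 0.12), with edgeR adjusted p-values of 4.30e-05, 0.000131 and 0.000136. Mfge8, which encodes a ligand of alpha v integrins, was lower at -0.32 (SE 0.07) and 0.00611. The basement membrane list had 2 genes higher and 1 lower for number 2. Ntn4, a laminin-related netrin, had 1.19 (SE 0.26) and Col18a1, a basement membrane collagen, -0.28 (SE 0.07), with edgeR adjusted p-values of 0.00459 and 0.00741. Hspg2, which encodes perlecan, and Col4a2, a collagen IV chain, were called in the F test and not for number 2. Under both hairpins they were lowest in number 1, with log2 differences of 0.24 and 0.30 for 2 over 1 and 0.51 and 0.38 for 3 over 1.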

How the data were processed

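RNA of 6 libraries was sequenced. By the labels' protocols, polyadenylated RNA was made into strand-specific libraries. Per the submitters' processing notes the build was mm10. The aligner, counter and strand setting were not given in the sources used here. The authors deposited raw counts per gene and a table of FPKM values. Within each library FPKM equals the count over gene length and over a constant 0.985 to 1.02 times the library total. Columns beginning NC and S were read, by name alone, as sh-control and sh-IRS2 with the number of the title.

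Counts were analysed with edgeR 4.0.16 in R 4.3.3: filterByExpr by group (13472 genes, 99.9% of counts), TMM, and robust quasi-likelihood tests, two-sided, with Benjamini-Hochberg adjustment over all genes tested and a threshold of 0.05. The hairpin fit had no other term, and the fit for replicate numbers had the hairpin as a term. Standard errors and intervals come from these fits. Alternatives were DESeq2 1.42.0, limma 3.58.1 on log2(FPKM + 1), DESeq2's size factors, no filter, no hairpin term, a replicate block and leaving out each library. Members, lists and the contrast of number 2 were chosen with earlier results of these data known. 1 member is counted in all totals but not reported here by name. The other members were described, those with a mean of at least 1 CPM with values, and up to 4 genes per partner list by smallest p in the test described. All other named genes are the controls or overlapping genes a result turns on.

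Deviations from the group mean correlated between same-numbered libraries at 0.167, 0.576 and 0.260 for numbers 1, 2 and 3, and the highest correlation with another number was 0.189, -0.31 and 0.199. Only number 2 stood clearly above its highest other, and number 1 lay below it. These values do not show that every number pairs the libraries, and no label says what a number shares. The main hairpin fit therefore had no block, and the replicate block was run as an alternative. The design text calls the replicates biological but no source names separate cultures, and p-values therefore reflect only how these samples vary, which may be technical variation. The limit for a count of 0 (3 counts) covers counting error only.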

Additional observations from a re-analysis of the deposited data

How the results depend on the processing

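The count of 0 members between the hairpin groups held under every alternative run, including the replicate block. All genes called there numbered 0 in edgeR, 6 without a filter, 2 in DESeq2 and 1 with the replicate block. The members' median hairpin log2 fold change was 0.041, against 0.024 in limma on log2(FPKM + 1), and -0.052 to 0.14 when single libraries were left out, below 0 without the control library numbered 2 or the shIRS2 library numbered 3. For the replicate numbers, the F test called 2638 genes and 8 members in edgeR, 1634 genes in DESeq2, and 803 genes and 4 members in limma. Without the hairpin term it called 4 members, and without single libraries 798 to 3774 genes and 5 to 11 members, with the lowest counts without the control library numbered 2. For number 2 against the mean of numbers 1 and 3, the 3169 genes and 8 members became 1968 and 4 in DESeq2 and 1836 and 4 in limma. There were 5 members without the hairpin term, and 808 to 3687 genes and 3 to 8 members without single libraries, the lowest counts being those without the control or the shIRS2 library numbered 2. Leaving out a library numbered 2 leaves 1 library of that number. The cause of the other shifts was not tested. The member counts under these alternatives are not set against the shares of all genes. They therefore do not show a change in the members beyond that of all genes. No member that passed changed direction under any alternative run. Among members that did not pass, the hairpin log2 fold change of Itga2b was 0.0033, against -0.056 with the replicate block and -0.0033 in limma. Leaving out single libraries turned the sign of the hairpin value in such members, with ranges of -0.095 to 0.23 for Itgb4, -0.025 to 0.089 for Lamc1, -0.59 to 0.34 for Itga2b, -0.15 to 0.55 for Itgal, -0.15 to 0.17 for Itgb7, -0.083 to 0.20 for Lama5, -0.20 to 0.12 for Lamb1, -0.081 to 0.24 for Lamb2, -0.18 to 0.41 for Itga4, -0.0073 to 0.30 for Itgb3 and -0.34 to 0.045 for Itga10. For number 2 such turns gave ranges of -0.14 to 0.34 for Itgb4, -0.018 to 0.081 for Lamc1, -0.31 to 0.15 for Itgb3, -0.12 to 0.058 for Itgb5, -0.036 to 0.074 for Itga3, -0.038 to 0.020 for Itgav, -0.77 to 0.19 for Itga4, -0.13 to 0.63 for Itgae and -0.44 to 0.096 for Itgb2. The summed chain FPKM moved by less than the spread between replicates under all alternatives. DESeq2 gave no adjusted p for Itgal in the contrast of number 2. Depth limits the members under 1 CPM, and the hairpin intervals reach past a 2-fold change for Itgal, Itga4 and Lamc3.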
